A study of Mus musculus with 55 samples.

Results

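Stellate cells and sinusoidal endothelial cells sorted from mouse liver after partial hepatectomy (PH, surgical removal of part of the liver) were compared across all genes. The comparison used 8 of the 55 libraries of the series, 3 of PH stellate cells (PH HSC) and 5 of PH liver sinusoidal endothelial cells (PH LSEC), taken by their titles. All came from strain C57B/L6, and cells were sorted by flow cytometry into TRIzol before RNA sequencing. The labels give no time after surgery, no sort markers, no age or sex and no statement that libraries of a group came from separate animals, so p-values measure only the spread between these libraries, which may be technical. The same contrast in liver labelled normal was taken from 2 Norm HSC and 3 Norm LSEC libraries of that strain.

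Stellate cells are the vitamin A-storing pericytes of the liver sinusoid, lying between hepatocytes and the vessel wall, and they are a known source of matrix and of the hepatocyte mitogen HGF. Sinusoidal endothelial cells line the same vessels, clear waste molecules through scavenger receptors, and are known to send WNT2, WNT9B and R-spondin signals to hepatocytes near the central vein. Growth factors act on neighbouring cells that carry the matching receptor, so the division of ligands and receptors between adjacent cell types sets which exchanges a niche could hold.

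The labelled cell types matched their markers. Hgf, the gene of hepatocyte growth factor (mm9 chr5:16059719-16125257, plus strand), was at 2594, 2016 and 1171 FPKM (fragments per kilobase of transcript, scaled to the library's total) in the 3 PH HSC libraries and at 69.9, 17.3, 60.5, 20.1 and 66.6 FPKM in the 5 PH LSEC libraries. Lrat, which makes retinyl esters for vitamin A storage (mm9 chr3:82696504-82707896, minus strand), was at 324, 452 and 268 FPKM in PH HSC and at 2.83, 9.35, 5.33, 1.34 and 11.3 FPKM in PH LSEC. Both genes were high in every HSC library and the groups did not overlap.

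Wnt2, a Wnt ligand (mm9 chr6:17938940-17980445, minus strand), was at 494, 488, 408, 644 and 512 FPKM in PH LSEC and at 2.42, 0 and 0.115 FPKM in PH HSC. Stab2, the scavenger receptor stabilin-2 (mm9 chr10:86303955-86470687, minus strand), was at 268, 111, 812, 71.7 and 469 FPKM in PH LSEC and at 5.26, 0 and 2.89 FPKM in PH HSC. Wnt2 was nearly even over the LSEC libraries, whereas Stab2 was lowest in LSEC libraries 2 and 4.

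The promoters of these 4 genes are shown because the genes are the markers that define the 2 cell types here. Each is the 250 bases before the start site in RefSeq (GRCm38.p6, a later build than the mm9 of the expression table), 5' to 3' on the gene's own strand. Capitals mark a GC box, GGGCGG on either strand, a site for general promoter factors. Hgf has 2 listed start sites, and the second is shown (chr5:16553651-16553900, plus strand). The others are Lrat (chr3:82903975-82904224, minus), Wnt2 (chr6:18030446-18030695, minus) and Stab2 (chr10:87007943-87008192, minus).
Hgf: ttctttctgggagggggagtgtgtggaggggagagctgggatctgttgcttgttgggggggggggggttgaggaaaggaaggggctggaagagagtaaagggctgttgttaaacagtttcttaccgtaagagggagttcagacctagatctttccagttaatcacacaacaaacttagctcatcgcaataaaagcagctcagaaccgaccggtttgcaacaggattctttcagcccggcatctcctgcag
Lrat: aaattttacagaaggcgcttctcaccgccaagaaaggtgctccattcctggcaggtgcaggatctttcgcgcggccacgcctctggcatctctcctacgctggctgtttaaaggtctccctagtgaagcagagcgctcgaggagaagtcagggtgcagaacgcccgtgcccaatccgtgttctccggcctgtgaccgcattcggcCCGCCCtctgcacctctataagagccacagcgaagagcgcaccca
Wnt2: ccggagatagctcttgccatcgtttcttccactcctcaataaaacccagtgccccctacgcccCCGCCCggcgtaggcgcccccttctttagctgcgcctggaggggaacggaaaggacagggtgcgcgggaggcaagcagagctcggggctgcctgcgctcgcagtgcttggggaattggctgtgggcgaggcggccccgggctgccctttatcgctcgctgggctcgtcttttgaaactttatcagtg
Stab2: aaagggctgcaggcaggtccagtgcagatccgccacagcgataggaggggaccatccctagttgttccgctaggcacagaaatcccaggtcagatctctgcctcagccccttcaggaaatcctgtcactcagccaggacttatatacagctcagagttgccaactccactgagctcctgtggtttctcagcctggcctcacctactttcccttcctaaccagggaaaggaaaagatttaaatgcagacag

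The pairs did not divide by cell type in base composition. The Lrat and Wnt2 windows each held 1 GC box, with 18 and 20 CpG dinucleotides and 59.2% and 63.6% G and C. The Hgf and Stab2 windows held none, with 5 and 3 CpG dinucleotides and 51.2% and 53.2% G and C. Of 27025 RefSeq promoters of the same length, 32.9% held a GC box. An ETS motif, CAGGAAG, and a LIM homeobox motif, TAATTA, searched on both strands, were not in these 4 windows and were in 10.5% and 4.9% of all promoters.

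Marker levels differed between libraries of a group. All 12 stellate markers passed as higher in HSC, with Lrat, Hgf, Reln, Dcn and Lhx2 among them, and their summed level was 15720 to 25640 FPKM in PH HSC against 45.6 to 360 FPKM in PH LSEC. All 12 sinusoidal markers passed as higher in LSEC, with summed levels of 3406 to 9434 FPKM against 103 to 147 FPKM in PH HSC. Both lists were chosen with earlier results of these data known, so these counts were not an independent test of the labels. LSEC libraries 2 and 4 had the lowest sinusoidal sums and the highest vessel marker Vwf, at 356 and 560 FPKM. Kupffer markers summed to 0.889 FPKM in HSC library 2, to 62.6 and 77.2 FPKM in HSC libraries 1 and 3, and to 103 to 225 FPKM in LSEC. The LSEC sums rest on C1qa, C1qb and C1qc, the 3 members higher in LSEC. The defining Kupffer marker Clec4f ran the other way, at 9.64, 0 and 12.2 FPKM in HSC and 0.356 to 2.15 FPKM in LSEC, and the median difference of the 7 tested Kupffer markers was 0.89 toward HSC; 4 of the 7 did not pass. Of 8 hepatocyte markers, Alb, Apoa1, Ttr, Cps1, Fgb and Serpina1c were listed at 0 in all 8 libraries, and Hnf4a was at most 0.544 FPKM. The remaining marker, Cyp2e1, was higher in HSC (11.0, 4.83 and 7.68 FPKM) than in LSEC (at most 0.261 FPKM). HSC library 2 had the most symbols listed at 0, 13848, and correlated least with the other HSC libraries; within-HSC correlations over genes were 0.919 to 0.977, within-LSEC 0.969 to 0.991. The part of these traces in the results was not tested.

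Of 11771 genes tested, 4154 (35.3%) differed by limma at an adjusted p under 0.05, with 1804 (15.3%) higher in HSC and 2350 (20%) higher in LSEC; 5182 (44.0%) had an unadjusted p under 0.05. The median difference of all genes was -0.12 on the log2(FPKM + 1) scale, coded HSC minus LSEC, a scale that understates the change of low genes. Quantile normalization moved that median by over 0.1, to -0.015, and the differences below are to be read against it. Without both LSEC libraries 2 and 4, an alternative chosen after seeing the data, 3596 genes were called, and without HSC library 2, 4637. Levels compare RNA in sorted cells; fewer cells of a type in a sort and less RNA per cell cannot be told apart.

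The growth factor list divided between both cell types, with more on the stellate side. Of its 148 genes, 92 passed the filter on low values (at least 1 FPKM in at least 3 of the 8 libraries). Of these, 39 were higher in HSC (42.4%, against 15.3% of all genes), 31 were higher in LSEC (33.7%, against 20%) and 22 did not pass, with a median difference of 0.53 against -0.12 for all genes. Without both LSEC libraries 2 and 4 these were 39 and 28. This list and the matrix and receptor lists were chosen with earlier results of these data known. They hold members of the marker lists, here Hgf, Wnt2 and Bmp2, so their shares are not independent of the marker counts.

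**Figure D1:**
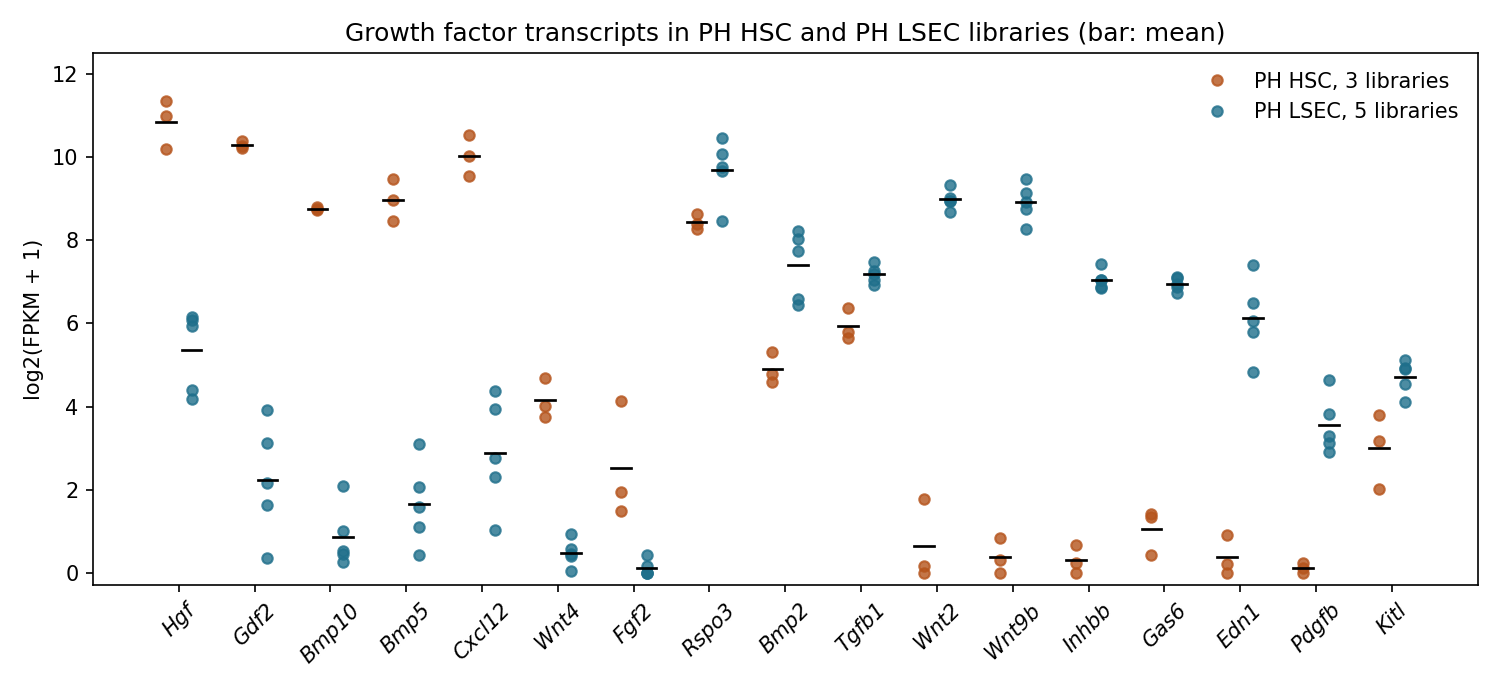
Levels of 17 ligand genes in single libraries, as log2(FPKM + 1), with PH HSC (3 libraries) in orange, PH LSEC (5 libraries) in blue and a bar at the mean of each group. Hgf to Fgf2 sit high in HSC, Wnt2 to Pdgfb sit high in LSEC, and Rspo3 and Bmp2 are present in both, with Rspo3 at 305 FPKM or more in every library.

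Ligands of receptor tyrosine kinases were more often higher in HSC. Of 26 tested, 12 were higher in HSC (46.2%, against 15.3% of all genes). The LSEC count of 6 (23.1%) was near the 20% of all genes, and 8 did not pass. Hgf was 41.1-fold higher in HSC by the ratio of group means (1927 ± 716 FPKM, SD, n = 3, against 46.9 ± 25.96, n = 5), and its log2 difference was 5.49 ± 0.52 (SE, limma adjusted p = 2.04e-05). As a share of the HSC mean, LSEC libraries 1 to 5 held 3.63%, 0.896%, 3.14%, 1.05% and 3.45% of Hgf and 0.207%, 0.775%, 0.210%, 0.0442% and 1.19% of Dcn, the most abundant stellate marker. Library 5 was high and library 4 low in both, while libraries 1 and 3 were high in Hgf only; the part of stellate RNA in these values was not tested.

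Il34 and Csf1, the 2 ligands of the macrophage receptor CSF1R, were both higher in HSC, but to different degrees. Il34 was at 116, 64.8 and 136 FPKM in HSC against at most 1.17 FPKM in LSEC, whereas Csf1 was at 93.2, 151 and 186 FPKM against 26.6 to 39.2 FPKM. Angptl2 was 127-fold and Angpt1, the activating ligand of TIE2, 4.19 log2 units higher in HSC. Angptl4 differed by 5.87 log2 units, but hepatocytes hold it at 72.5 FPKM after PH, and many hepatocyte transcripts are at 0 in the other sorted populations, which limits what can be read from such genes.

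On the endothelial side, Gas6, a ligand of the AXL, MERTK and TYRO3 kinases, was at 105, 137, 122, 136 and 116 FPKM in LSEC and at 1.53, 0.351 and 1.65 FPKM in HSC. Pdgfb, the PDGF chain that recruits pericytes, was at 6.44 to 23.8 FPKM in LSEC and at most 0.182 FPKM in HSC. Kitl (16.4 to 33.5 against 3.04 to 12.9 FPKM) and Hbegf (7.08 to 17 against 0 to 1.19 FPKM) did not overlap either. Gas6 is at 22 FPKM in PH hepatocytes, and Vegfa, which passed at -1.04 log2 units (limma adjusted p = 0.037), at 19.0 FPKM. The Vegfa call was lost without any of 5 single libraries, LSEC 1, 2 and 5 and HSC 1 and 3 (adjusted p = 0.052 to 0.13).

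Wnt genes divided by member. Only 7 of 23 Wnt ligands, R-spondins and secreted inhibitors passed the filter, and all 7 were called. Wnt2 and Wnt9b passed the filter only through LSEC, and Wnt4 and Wnt5a only through HSC. The shares called are therefore partly set by the filter. In HSC 4 were higher (57.1%, against 15.3% of all genes) and in LSEC 3 (42.9%, against 20%). Wnt9b was at 483, 430.3, 309, 711 and 561 FPKM in LSEC and at 0.804, 0 and 0.243 FPKM in HSC. Its log2 difference was -8.52 ± 0.29 and that of Wnt2 was -8.34 ± 0.37 (limma adjusted p = 1.05e-07 and 2.5e-07). Wnt4 (12.45, 15.2 and 24.9 FPKM), Wnt5a (3.71, 3.88 and 4.58 FPKM) and the secreted Wnt antagonist Frzb (206, 329.7 and 271 FPKM) were on the stellate side, with LSEC values of at most 0.921, 0.110 and 5.20 FPKM.

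Rspo3, which potentiates Wnt signals, was high in both cell types. It was at 865, 1084, 352, 1406 and 810.0 FPKM in LSEC and at 398, 305 and 332 FPKM in HSC, so the groups overlapped at LSEC library 3. HSC library 2, which was listed at 0 for Stab2 and Fcgr2b, held 33.8% of the LSEC mean of Rspo3. Its log2 difference of -1.26 ± 0.39 passed by limma (adjusted p = 0.031), and this call was lost without any 1 of 7 libraries (LSEC 1, 2, 4 and 5, HSC 1, 2 and 3; adjusted p = 0.055 to 0.082) and without both LSEC libraries 2 and 4 (adjusted p = 0.11).

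The BMP ligands of the blood were stellate transcripts. Gdf2, which encodes BMP9 (mm9 chr14:34754225-34760384, plus strand), was at 1225, 1325 and 1187 FPKM in HSC and at 2.12, 7.79, 3.48, 0.280 and 14.1 FPKM in LSEC. Bmp10, its closest relative, was at 427, 446 and 421 FPKM in HSC and at 0.441, 1.0, 0.200, 0.380 and 3.23 FPKM in LSEC. Both were among the 10 largest differences toward HSC, and their HSC libraries lay within a narrow range. Bmp5 (184-fold) and Gdf10 (222-fold) were also higher in HSC. In all, 12 of 20 tested TGF-beta and BMP ligand list members were higher in HSC (60%, against 15.3% of all genes). Another 5 were higher in LSEC (25%, against 20%) and 3 did not pass, with a median of 2.10.

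The 5 members higher in LSEC were Inhbb, Bmp2, Bmp6, Tgfb1 and Tgfb2. Inhbb, the activin B subunit, was at 116, 130, 170, 115 and 131 FPKM in LSEC and at 0.597, 0.190 and 0 FPKM in HSC (log2 difference -6.73 ± 0.21, limma adjusted p = 9.68e-08). Bmp2 and Bmp6 induce hepcidin in hepatocytes. Bmp2 was at 213, 94.6, 297, 86.3 and 259 FPKM in LSEC, lowest in libraries 2 and 4, and still at 22.9, 39.0 and 26.8 FPKM in HSC. Bmp6 was at 4.84 to 24.4 FPKM in LSEC and at most 0.359 FPKM in HSC. Tgfb1 was present in both (120 to 177 FPKM in LSEC, 49.6 to 81.5 FPKM in HSC), and Tgfb3 was on the stellate side (13 to 29.3 against 1.23 to 4.88 FPKM).

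Guidance and Notch ligands were more often endothelial. Of 17 tested, 8 were higher in LSEC (47.1%, against 20% of all genes) and 4 in HSC (23.5%, against 15.3%). The other 5 did not pass, and the median was -1.29. Sema3f, a repellent cue, was at 432 to 521 FPKM in every LSEC library and at 7.37, 7.42 and 22.2 FPKM in HSC. Dll1, a Notch ligand, was at 33.5 to 48.7 FPKM in LSEC and at most 0.476 FPKM in HSC, while Jag1 was at means of 29.9 and 28.9 FPKM (difference 0.05, limma adjusted p = 0.94). Sema6d (258, 462 and 348 against 25.8 to 62.2 FPKM) and Ntn1 (175, 127 and 165 against 12.1 to 41.6 FPKM) were higher in HSC.

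Among 22 tested chemokines, cytokines and vasoactive peptides, 7 were higher in HSC (31.8%, against 15.3% of all genes) and 9 in LSEC (40.9%, against 20%). Cxcl12, the CXCR4 and ACKR3 ligand, was at 1486, 745 and 1034 FPKM in HSC and 1.06 to 19.8 FPKM in LSEC; hepatocytes hold it at 55 FPKM. Adm, the vasodilator adrenomedullin, was at 177, 285 and 221 FPKM in HSC against at most 7.93 FPKM in LSEC. Edn1, the constrictor endothelin-1, went the other way, at 54.7, 169, 27.5, 89.6 and 65.5 FPKM in LSEC and 0.170, 0 and 0.892 FPKM in HSC. Apln was listed at 0 in all 3 HSC libraries and was at 3.85 to 14.3 FPKM in LSEC. The death ligand Tnfsf10 (TRAIL) was 102-fold higher in LSEC.

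**Figure D2:**
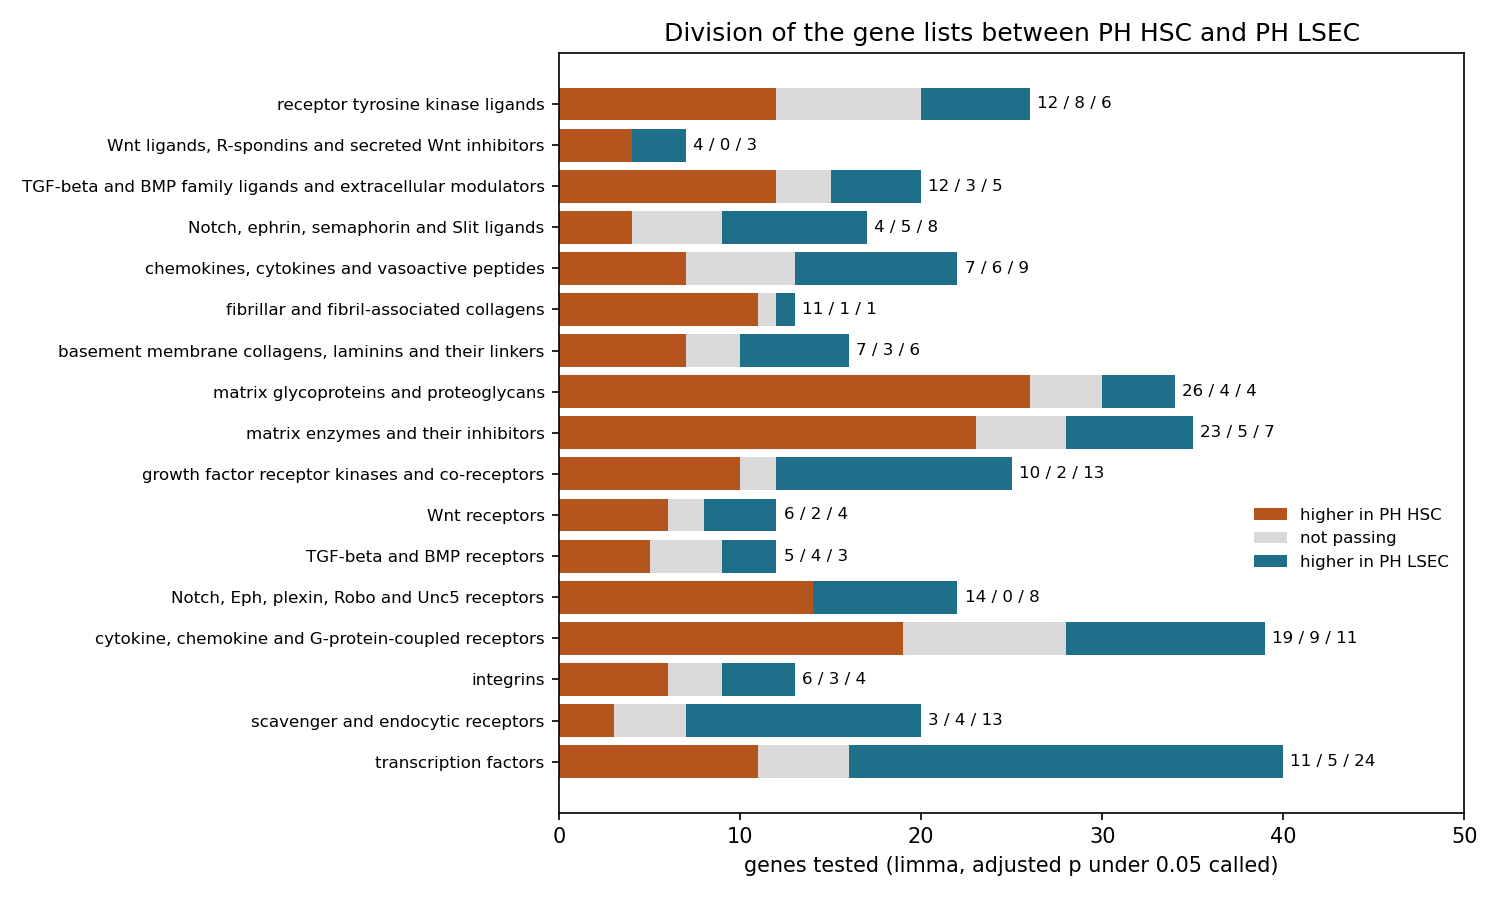
Number of tested genes in each list that were higher in PH HSC (orange), did not pass (grey) or were higher in PH LSEC (blue) by limma at adjusted p under 0.05, with the 3 counts beside each bar in that order. Fibrillar collagens (11, 1 and 1) lie mostly on the HSC side and scavenger receptors (3, 4 and 13) on the LSEC side, against 15.3% and 20% of all genes called in HSC and LSEC.

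Matrix genes leaned to the stellate cell. Of 144 listed genes, 98 were tested, and 67 (68.4%) were higher in HSC, 18 (18.4%) were higher in LSEC and 13 did not pass. The LSEC share was near the 20% of all genes, and the HSC share was above the 15.3%. The median difference was 2.36. Dcn, Reln and Vwf are among the members that are also in the marker lists. Without both LSEC libraries 2 and 4 the counts were 66 and 17, and without HSC library 3 they were 60 and 17.

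Fibrillar and fibril-associated collagens leaned furthest, with 11 of 13 tested genes higher in HSC (84.6%, against 15.3% of all genes) and a median of 5.48. The LSEC share was 7.69%, against 20% of all genes. Col14a1, which decorates collagen fibrils, was at 652, 743 and 801 FPKM in HSC and at 3.76 to 17.9 FPKM in LSEC. Col3a1 (141, 422 and 377 FPKM), Col1a2 (187, 286 and 347 FPKM) and Col1a1 (36.2, 96.3 and 109 FPKM), the chains of the main interstitial fibrils, were at 0.0565 to 6.43 FPKM in LSEC. All 3 were lowest in HSC library 1, as was the contractile marker Acta2 (26.8, 131 and 111 FPKM). The 1 endothelial member was Col13a1, a transmembrane collagen, at 123 to 249 FPKM in LSEC and 2.13, 23.6 and 3.31 FPKM in HSC.

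The basement membrane list was split (median 0.35). Of 16 tested genes, 7 were higher in HSC (43.8%, against 15.3% of all genes), 6 in LSEC (37.5%, against 20%) and 3 did not pass. Its most abundant collagens were shared. Col4a1 averaged 1254 ± 679 FPKM in HSC (n = 3) and 757 ± 199 FPKM in LSEC (n = 5), and Col4a2 586 ± 273 and 637 ± 196 FPKM (limma adjusted p = 0.34 and 0.73). Laminin chains divided by subunit. Lama1 (39.1 to 81.9 FPKM), Lama2 (27.1 to 43.2 FPKM) and Lamb1 (229.8 to 366 FPKM) were stellate, with at most 6.97 FPKM in any LSEC library. Lama4 (24.6 to 34.7 FPKM) and Lamb2 (67.5 to 86.0 FPKM) were higher in LSEC, against at most 2.02 and 31.0 FPKM in HSC, and Lamc1, the shared gamma chain, was present in both (154 to 233 and 51.0 to 75.8 FPKM). Perlecan, Hspg2, was higher in LSEC (157 to 408 against 40.5 to 84.7 FPKM). Col18a1 was listed at 0 in all HSC libraries and was at 2.16 to 10.1 FPKM in LSEC; it is at 107 FPKM in PH hepatocytes.

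**Figure D3:**
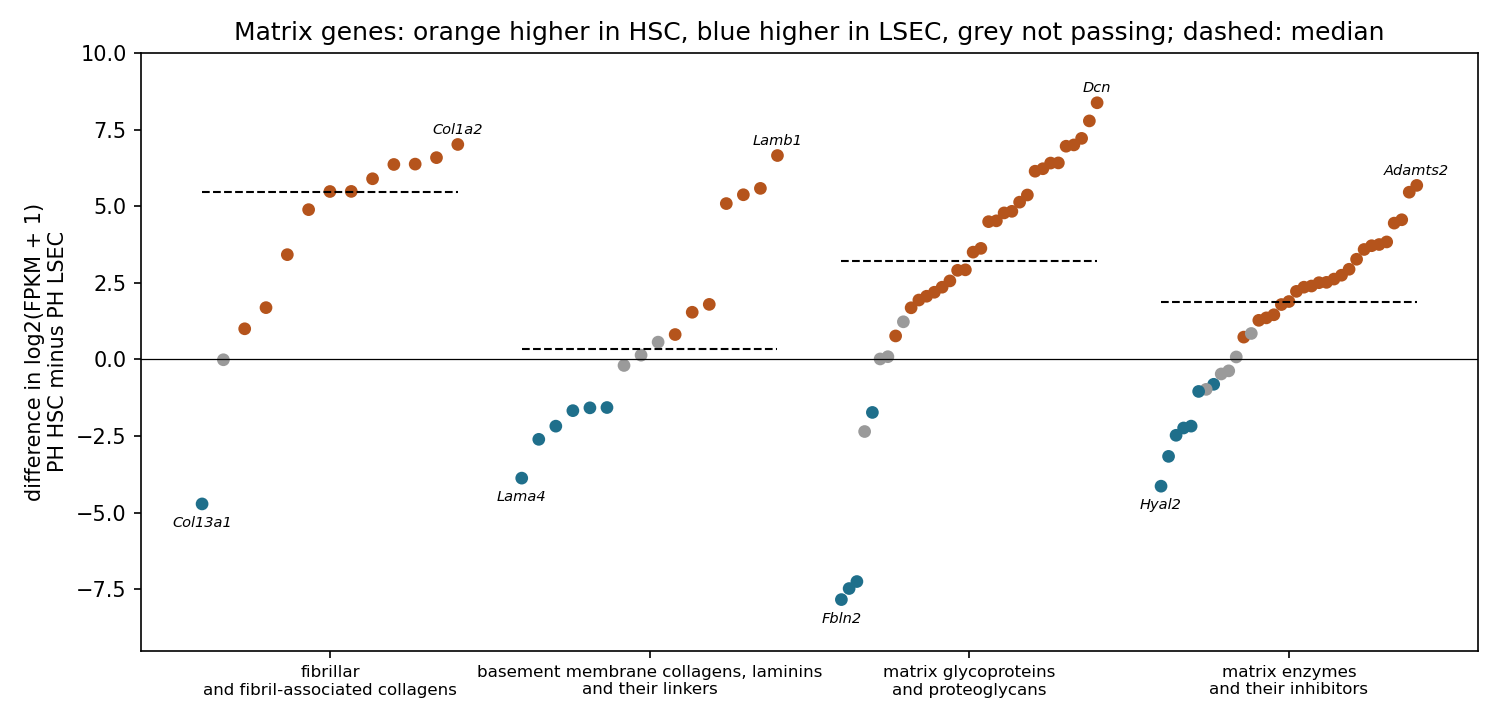
Difference in log2(FPKM + 1), PH HSC minus PH LSEC, of each tested matrix gene, ranked within its list; orange genes were higher in HSC, blue higher in LSEC, grey did not pass, and the dashed line is the list's median. The medians are 5.48, 0.35, 3.21 and 1.89 from left to right, and Fbln2 at -7.84 is the lowest point.

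Among the matrix lists, the highest HSC means were those of glycoproteins and proteoglycans. Dcn, decorin, was at 18570, 15530 and 11050 FPKM in HSC and at 31.1, 117, 31.6, 6.65 and 180 FPKM in LSEC (log2 difference 8.38 ± 0.87, limma adjusted p = 4.12e-05). Its LSEC values were highest in libraries 5 and 2. Ecm1 (4517, 7042 and 6065 FPKM) and Tgfbi (3323, 2316 and 3366 FPKM) were also high. Of 34 tested members, 26 were higher in HSC (76.5%, against 15.3% of all genes). Ecm1 and Bgn stayed well above trace levels in LSEC, at 130 to 299 and 576 to 835 FPKM, and Sparc differed by only 0.77 log2 units (1621, 2509 and 1949 against 1044 to 1252 FPKM).

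The 4 glycoproteins higher in LSEC (11.8% of those tested, against 20% of all genes) were Fbln2, Vwf, Mmrn2 and Mgp. Fbln2, an elastic fibre protein, was at 264, 341, 108, 515 and 201 FPKM in LSEC and at 0, 0 and 0.344 FPKM in HSC. Vwf, the platelet-binding von Willebrand factor, was at 243, 356, 161, 560 and 254 FPKM in LSEC and at most 1.12 FPKM in HSC. Both were highest in LSEC library 4 and lowest in library 3, the reverse of Stab2. The endothelial adhesive glycoprotein Mmrn2 was even, at 209 to 285 FPKM.

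Among 35 tested matrix enzymes and inhibitors, 23 were higher in HSC and 7 in LSEC. The LSEC share was that of all genes (20%), and the HSC share (65.7%) was above the 15.3% of all genes. On the stellate side, Adamts2, a procollagen protease, was at 40.6, 138 and 69.5 FPKM against at most 1.42 FPKM, the procollagen enhancer Pcolce at 307, 513 and 505 against 29.4 to 45.2 FPKM, and Loxl2, a lysyl oxidase, at 101, 243 and 153 against 21.3 to 34.7 FPKM. Mmp2 (71.8 to 77.0 FPKM) and its inhibitor Timp2 (108 to 183 FPKM) were also stellate, whereas Timp3 (299 to 578 against 18.1 to 126 FPKM), the hyaluronidase Hyal2 (284 to 403 against 14.3 to 23.0 FPKM, with 32.1 FPKM in PH hepatocytes) and the plasmin pathway pair Plau and Plaur were higher in LSEC. Mmp14, which activates pro-MMP2, was higher in LSEC by 0.81 log2 units, and hepatocytes hold it at 18.1 FPKM.

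Receptors divided nearly evenly. Of 186 listed genes 143 were tested, and 63 (44.1%, against 15.3% of all genes) were higher in HSC, 56 (39.2%, against 20%) were higher in LSEC and 24 did not pass, with a median of 0.21. Without both LSEC libraries 2 and 4 these were 61 and 56. Pdgfrb, Ngfr, Kdr and Tie1 are among the members that are also in the marker lists.

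Among growth factor receptors, 10 of 25 tested were higher in HSC (40%, against 15.3% of all genes) and 13 in LSEC (52%, against 20%). Pdgfra (388, 472 and 283 FPKM) and Pdgfrb (173, 247 and 359 FPKM), the PDGF receptors of mesenchymal cells, were at most 4.08 and 2.54 FPKM in LSEC. Fgfr2 was at 480.3, 359 and 486 FPKM in HSC against at most 11.1 FPKM, while Fgfr3 was at 59.6 to 123 FPKM in LSEC against at most 1.74 FPKM. Egfr was at 12.9, 33.0 and 12.8 FPKM in HSC and listed at 0 in 4 of 5 LSEC libraries; it is at 153 FPKM in PH hepatocytes. Met, the HGF receptor, was below the filter in both cell types, at means of 0.145 and 0.137 FPKM, and is at 12.9 FPKM in PH hepatocytes.

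The 13 receptors higher in LSEC included those of VEGF, angiopoietin and stem cell factor. Kdr (VEGFR2) was at 434, 170, 646, 263 and 574 FPKM in LSEC and at 3.29, 0.0813 and 3.02 FPKM in HSC. Tek (TIE2) was at 347 to 522 FPKM, Tie1 at 407 to 699 FPKM, Kit at 264 to 453 FPKM and Flt4 (VEGFR3) at 153 to 383 FPKM in LSEC, with at most 4.24 FPKM in any HSC library. Kdr and Flt4 were lower in LSEC libraries 2 and 4 than in the others. HSC library 2, which also had the lowest Kupffer and sinusoidal marker sums of the HSC libraries, had 0 for Tek and Flt4 and 0.124 FPKM for Tie1.

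Wnt receptors split by member, with Fzd1, Fzd7, Ror1, Ryk, Lgr4 and Znrf3 higher in HSC and Fzd4, Fzd6, Lrp5 and Lrp6 higher in LSEC. Fzd4 was at 44.7 to 99.7 FPKM in LSEC and 12.45, 18.9 and 14.2 FPKM in HSC. Fzd1 was at 30.0, 32.5 and 44.2 FPKM in HSC and 1.11 to 1.81 FPKM in LSEC. Lgr4, an R-spondin receptor, was low (2.05, 9.89 and 3.27 FPKM in HSC, 0.363 to 1.95 FPKM in LSEC). Its call (limma adjusted p = 0.044) was lost without any 1 of 7 libraries (LSEC 1 to 5, HSC 2 and 3; adjusted p = 0.053 to 0.099), and it is at 7.25 FPKM in PH hepatocytes.

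BMP and TGF-beta receptors split by member. Of 12 tested, 5 were higher in HSC (41.7%, against 15.3% of all genes). Another 3 were higher in LSEC (25%, near the 20% of all genes) and 4 did not pass, with a median of -0.08. Acvrl1 (ALK1), the endothelial receptor of BMP9 and BMP10, was at 39.9, 51.1, 26.4, 43.8 and 37.0 FPKM in LSEC and 0.362, 0 and 1.39 FPKM in HSC. Bmpr1a (ALK3) was at 59.6, 43.8 and 43.5 FPKM in HSC and 0.527 to 1.09 FPKM in LSEC. Tgfbr2 was 6.28-fold higher in LSEC (330 ± 55.5 FPKM, n = 5, against 52.5 ± 4.67, n = 3), and Tgfbr1 was higher in HSC (25.1 to 46.3 against 7.96 to 13 FPKM). The co-receptor Eng, often used as an endothelial marker, averaged 701 ± 170 FPKM in HSC and 1133 ± 260 FPKM in LSEC and did not pass (limma adjusted p = 0.052).

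Notch, Eph, plexin and Robo receptors all passed. Of 22 tested, 14 were higher in HSC (63.6%, against 15.3% of all genes) and 8 in LSEC (36.4%, against 20%). Notch2 and Notch3 were stellate (12.0 to 28.4 and 9.07 to 26.4 FPKM in HSC, at most 1.67 and 0.220 FPKM in LSEC), and Notch1 and Notch4 were higher in LSEC (69.0 to 107 and 26.3 to 32.0 FPKM, against 28.9 to 47.6 and 3.62 to 10.2 FPKM). Epha3, Epha7, Robo1 and Robo2 were higher in HSC. Robo4 (121 to 172 FPKM), Ephb4 (299 to 399 FPKM) and Plxnd1 (129 to 261 FPKM) were higher in LSEC, against at most 1.79, 83.8 and 38.4 FPKM in HSC.

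Of 39 tested cytokine and G-protein-coupled receptors, 19 were higher in HSC (48.7%, against 15.3% of all genes) and 11 in LSEC (28.2%, against 20%). Vasoactive receptors of HSC were Agtr1a for angiotensin II (812, 753 and 883 FPKM), Ednra for endothelin (231, 292 and 201 FPKM) and Adra2b for catecholamines (134, 78.4 and 121 FPKM), all at most 5.81 FPKM in LSEC; hepatocytes hold Agtr1a at 20.9 FPKM. The other endothelin receptor, Ednrb, averaged 524 ± 172 FPKM in HSC and 470 ± 179 FPKM in LSEC (limma adjusted p = 0.72). Sphingosine-1-phosphate receptors divided, with S1pr3 in HSC (176, 228 and 245 against 0.732 to 3.12 FPKM) and S1pr1 in LSEC (187 to 317 against 0 to 1.09 FPKM); hepatocytes hold S1pr1 at 26.9 FPKM. The adrenomedullin receptor subunits Ramp2 (533 to 1045 FPKM) and Ramp3 (43.3 to 180 FPKM) were higher in LSEC, against at most 53.7 and 0.405 FPKM in HSC. Calcrl, the receptor paired here with Adm, averaged 210 FPKM in HSC and 336 FPKM in LSEC and did not pass. The related gene Ramp1 was higher in HSC (74.6 to 172 FPKM). Ackr3, a CXCL12 scavenger, was at 132 to 215 FPKM in LSEC and at most 0.422 FPKM in HSC. The shared signal chain of the IL-6 family, Il6st, was high in both, at 1111 ± 91.5 and 1024 ± 449 FPKM (limma adjusted p = 0.64), and Osmr was higher in HSC (117, 80.3 and 103 against 17.7 to 33.2 FPKM).

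Integrins were divided, 6 of 13 tested higher in HSC (46.2%, against 15.3% of all genes) and 4 in LSEC (30.8%, against 20%). Itgav was at 40.8 to 55 FPKM and Itgb3 at 174 to 364 FPKM in HSC, against 8.34 to 9.76 and 9.59 to 28.8 FPKM in LSEC. Itga5, part of the fibronectin receptor, was higher in LSEC (82.2 to 110 against 17.1 to 49.2 FPKM), and Itgb1 differed by 0.59 log2 units toward HSC.

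Scavenger receptors were mostly endothelial. Of 20 tested, 13 were higher in LSEC (65%, against 20% of all genes), with a median of -3.69. The HSC count of 3 (15%) was near the 15.3% of all genes, and 4 did not pass. Stab1, Stab2, Mrc1, Lyve1, Fcgr2b and Clec4g are also in the sinusoidal marker list, so the LSEC count partly repeats the marker count. Stab1 (214 to 615 FPKM), Mrc1 (132 to 645 FPKM), Clec4g (551 to 1919 FPKM) and Fcgr2b (298 to 1177 FPKM) were highest in LSEC library 3, and in HSC they were highest in libraries 1 or 3, at most 43.7 FPKM. Lyve1, a hyaluronan receptor, was more even (196 to 383 FPKM). The 3 on the stellate side were Lrp1, Mrc2 and Scarb2. Lrp1 was at 199, 312 and 279 FPKM in HSC and at 0.174 to 6.95 FPKM in LSEC, and is at 52.4 FPKM in PH hepatocytes.

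Ligands and receptors were set side by side in 57 known pairs, of which both genes passed in 24. No share over all possible gene pairs was computed, so the pair counts are descriptive. The ligand was higher in HSC and its receptor in LSEC in 8 pairs, and the reverse held in 5. Both were higher in HSC in 4 pairs and both in LSEC in 7. The 8 pairs were Gdf2 and Bmp10 with Acvrl1, Angpt1 with Tek, Vegfc with Flt4, Cxcl12 with Ackr3, Tgfb3 with Tgfbr2, Fgf2 with Fgfr1 and Wnt4 with Fzd6.

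Vegfc, a VEGFR3 ligand, was at 75.7, 51.2 and 90.3 FPKM in HSC and at 3.01 to 35.2 FPKM in LSEC, highest in LSEC library 2. The pairs with the ligand higher in LSEC and the receptor in HSC were Pdgfb with Pdgfrb, Edn1 with Ednra, Gas6 with Axl, Hbegf with Egfr and Rspo3 with Lgr4. Rspo3 was also high in HSC, and the calls of Rspo3 and Lgr4 were lost without single libraries, as given above. Mertk, also paired with Gas6, averaged 67.6 FPKM in HSC and 85.9 FPKM in LSEC and did not pass. The pairs within HSC included Pdgfa with Pdgfra, Bmp5 with Bmpr1a and Col1a1 with Ddr2. Those within LSEC were Wnt2 with Fzd4, Kitl with Kit, Efnb2 with Ephb4, Tgfb1 and Tgfb2 with Tgfbr2, and Vegfa with Kdr and Flt1. The Vegfa call was also lost without single libraries. Fgfr1 was close between groups (7.24, 21.7 and 11.4 FPKM in HSC, 21.4 to 26.8 FPKM in LSEC, overlapping), and its call (limma adjusted p = 0.028) was lost without any 1 of 6 libraries (LSEC 1, 2, 4 and 5, HSC 1 and 3; adjusted p = 0.05 to 0.089).

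**Figure D4:**
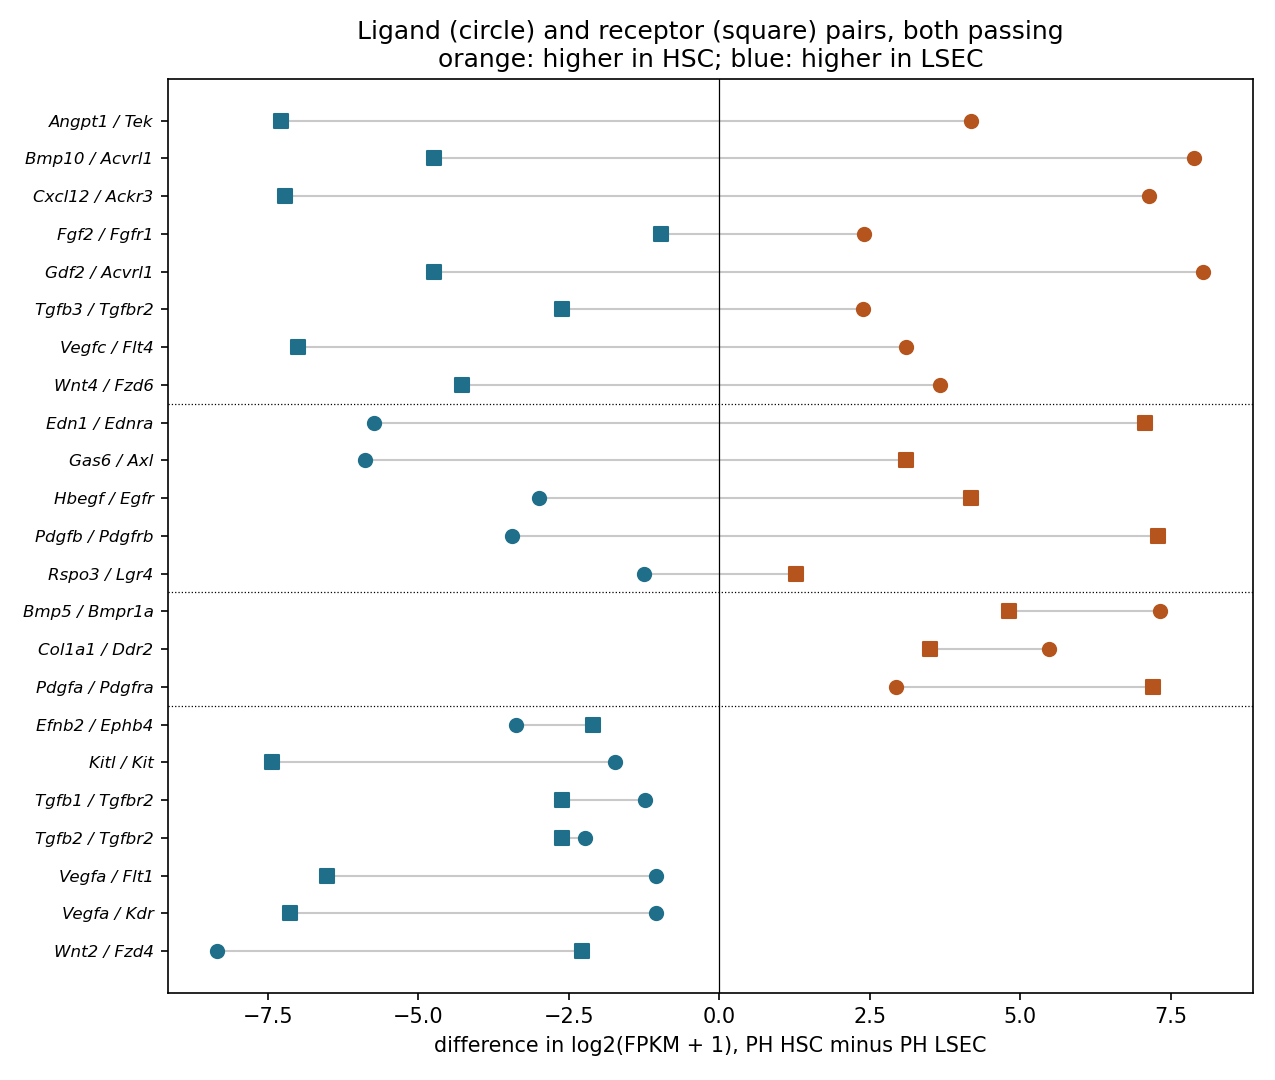
Ligand and receptor pairs in which both passed (23 shown), as the difference in log2(FPKM + 1), PH HSC minus PH LSEC, of the ligand (circle) and the receptor (square); orange is higher in HSC, blue higher in LSEC. Bmp10 at 7.89 and its receptor Acvrl1 at -4.75 lie on opposite sides, as do Edn1 at -5.74 and Ednra at 7.07.

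The 10 largest differences toward HSC, among genes under 10 FPKM in hepatocytes, included Tnfrsf11b, Dcn, Igfbp3, Sod3, Gdf2, Ms4a4d, Bmp10, Tgfbi and Colec11, most of which encode secreted proteins. Tnfrsf11b, the RANKL decoy osteoprotegerin, was at 975, 456 and 1110.0 FPKM in HSC and 0.0898 to 3.92 FPKM in LSEC (log2 difference 8.70 ± 0.49, limma adjusted p = 8.13e-07). Igfbp3, an IGF carrier, was at 493, 1083 and 702 FPKM against 0.220 to 4.84 FPKM. The 10 toward LSEC were Wnt9b, Wnt2, Jam2, Slc26a10, Tie1, Selp, Fbln2, Aqp1, Emcn and Entpd1. Jam2, a junctional adhesion molecule, was at 984 to 1733 FPKM in LSEC and 6.27, 1.8 and 3.15 FPKM in HSC, and the water channel Aqp1 was at 3169 to 5747 against 17.5 to 27.2 FPKM.

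Of 40 tested transcription factors, 24 were higher in LSEC (60%, against 20% of all genes). Another 11 were higher in HSC (27.5%, against 15.3%) and 5 did not pass (median -1.55). The list was chosen with earlier results of these data known and holds many factors of endothelial identity. Erg, Sox17, Lhx2 and Hand2 are also in the marker lists, so these shares describe the list and not transcription factors at large. Stellate factors were Tcf21 (367, 251 and 295 FPKM), Hand2 (232, 341 and 202 FPKM), Foxf1 (162, 204 and 148 FPKM) and Lhx2 (75.9, 69.3 and 65.8 FPKM), all at most 3.70 FPKM in LSEC. Erg, Sox7, Sox17, Sox18 and Tal1, factors of endothelial identity, were at 20.6 to 176 FPKM in LSEC and at most 0.658 FPKM in HSC. The GATA factors divided, Gata4 being higher in LSEC (221 to 285 against 58.5 to 71.3 FPKM) and Gata6 in HSC (22.3 to 49.5 against 0 to 1.63 FPKM). Flow-responsive Klf2 (279 to 519 FPKM) and Klf4 (81.2 to 141 FPKM) were higher in LSEC, against at most 73.2 and 4.79 FPKM. None of 8 immediate early genes, which cell isolation can induce, passed by limma; Fos was at 72.0 to 182 FPKM in HSC and 123 to 951 FPKM in LSEC (limma adjusted p = 0.071).

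Compared with the other sorted populations after PH, the niche ligands differed in how far they were held by these cells. Of 85 named genes higher in HSC than in LSEC, 57 had their highest group mean in HSC. Of 79 named genes higher in LSEC, 38 had it in LSEC and 21 in the general endothelial sort. Hgf, Gdf2 and Bmp10 had their highest group mean in HSC, and Wnt2, Wnt9b and Inhbb in LSEC. Hbegf, though higher in LSEC than in HSC, had its highest mean in biliary cells (223 FPKM). Gas6 had its highest mean in the sorts labelled non progenitor ducts (1028 FPKM), Angpt1 in biliary cells (44.5 FPKM), and Col3a1 and Col1a1 in the same duct sorts (1611 and 318 FPKM) and in Thy1 cells (1334 and 309 FPKM). Edn1 (334 FPKM) and Vwf (846 FPKM) were highest in the general endothelial sort. These orders are of group means and were not tested.

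In normal liver the same contrast called 2603 of 12293 genes (21.2%), 1126 (9.16%) higher in HSC and 1477 (12.0%) in LSEC. This count was 1239, 1475 and 1606 without Norm LSEC 1, 2 and 3 in turn and 4959 with all 20 groups in a single fit, so the shares of calls below depend on these libraries and on the fit. Of 11457 genes tested in both contrasts, 1998 were called in both, 49.8% of the PH calls and 80.6% of the normal calls, 1993 in the same direction and 5 in opposite directions. The 2 contrasts share no library. Norm HSC library 2 held more endothelial and Kupffer RNA, with Stab2 at 96.8 FPKM, sinusoidal markers summing to 1587 FPKM and Kupffer markers to 1321 FPKM, and its part in the differences below was not tested.

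The PH and normal differences themselves differed for 61 of 13123 genes (0.465%), 16 (0.122%) positive and 45 (0.343%) negative, by a limma interaction at adjusted p under 0.05; 1710 (13%) reached an unadjusted p under 0.05. This count rests on single libraries: it was 1 without Norm LSEC 1, 5 without PH LSEC 1, 22 without Norm LSEC 2, 31 without PH LSEC 4, 0 without both PH LSEC 2 and 4, and 389 and 532 without Norm HSC 2 and Norm HSC 1. Without PH HSC 1 and PH HSC 2 it was 99 and 115.

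Among the 61, Wnt9b was at 39.5, 12.98 and 65.9 FPKM in Norm LSEC and at 309 FPKM or more in every PH LSEC library, with at most 1.12 FPKM in any HSC library (difference of contrasts -4.23 ± 0.68, limma adjusted p = 0.019). Jam2 was at 363, 161 and 469 FPKM in Norm LSEC and at 18.8 and 29.9 FPKM in Norm HSC, against 984 to 1733 and 1.8 to 6.27 FPKM after PH. Spon1, a matrix glycoprotein, was at 118, 172 and 107 FPKM in PH HSC and 9.57 and 9.49 FPKM in Norm HSC, with at most 1.94 FPKM in any LSEC library (difference of contrasts 3.42 ± 0.57, limma adjusted p = 0.023). Osmr, the oncostatin M receptor, was at 34.0 and 23.1 FPKM in Norm HSC and 44.2 to 64.2 FPKM in Norm LSEC, the opposite order to that after PH.

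Hgf and Wnt2 did not pass this test. Hgf was at 817 and 532 FPKM in Norm HSC and 40.8 to 51.0 FPKM in Norm LSEC (difference of contrasts 1.70 ± 0.73, limma adjusted p = 0.34). Wnt2 was at 144, 243 and 203 FPKM in Norm LSEC and at 0.442 and 16.2 FPKM in Norm HSC, where the higher value is in library 2 (difference of contrasts -3.06 ± 0.98, limma adjusted p = 0.19). Gdf2 (789 and 838 FPKM) and Bmp10 (242 and 222 FPKM) were on the stellate side in normal liver too, with at most 2.51 and 0.261 FPKM in Norm LSEC.

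**Figure D5:**
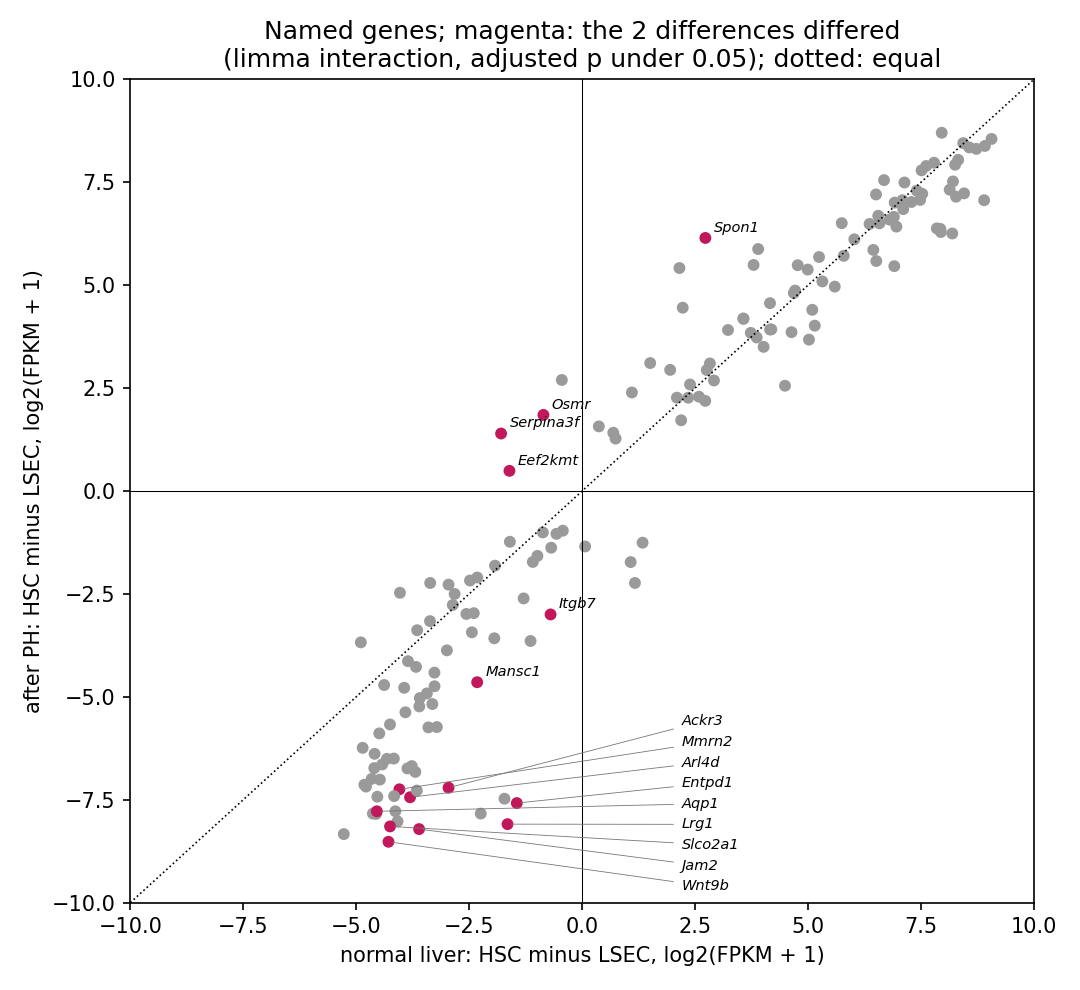
Difference in log2(FPKM + 1), HSC minus LSEC, after PH (vertical) against normal liver (horizontal) for 165 named genes tested in both contrasts; magenta marks the 15 whose 2 differences differed by the limma interaction, and the dotted line marks equal differences. Of the 165, 157 had the same sign in both contrasts, and Wnt9b lies at -8.52 after PH and -4.29 in normal liver. Most of these genes were chosen for their PH differences and some for their interaction p. Neither count therefore describes all genes, of which 0.465% differed by the interaction.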

How the data were processed

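The authors deposited 1 table of FPKM with a column for each library; the unit is taken from the table's name. The submitters' processing notes name CASAVA 1.8.2, Bowtie 1.0.0 and mm9; the counting tool is not given in the sources used here. Read depth is unknown, so no counting intervals are given; library sums were 624726 to 737471 FPKM. The table has 36141 transcript rows; for each of its 24478 symbols, only the row whose mean across the 55 libraries was largest entered the tests.

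The contrast of PH HSC and PH LSEC was fitted on log2(FPKM + 1) by limma (3.58.1; R 4.3.3), with trended, robust variances, two-sided, Benjamini-Hochberg adjusted over all genes tested. Genes needed 1 FPKM or more in 3 libraries (2 in the normal and interaction fits). On simulated data the PH fit recovered 175 of 200 genes changed by 2 log2 units among 11771, with 12 false calls. The normal fit recovered 109 of 200 among 12293, with 6 false calls. The changed genes were drawn from the more abundant ones and no other gene differed, unlike in the data. The normal contrast and the interaction used only their own libraries. Named genes were the 4 markers, the 10 largest passing differences without overlap in each direction among genes under 10 FPKM in hepatocytes and up to 3 among the others, up to 4 in each direction per list, pairs in which both passed, and the 5 smallest interaction p in each direction; list members named beyond these were chosen after their values were seen. The gene lists, pairs and members were chosen with earlier results of these data known. Expression coordinates are mm9, with the start counted from 1. Promoters were not compared between gene sets, since 76% of the genes tested matched one. Results that need a withheld item are not reported here.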

Additional observations from a re-analysis of the deposited data

Results flagged for a closer look

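In PH LSEC, 7 of 187 group values examined had 1 library far from the other 4, where chance gives about 1 in 20, or 9.3. On the log2(FPKM + 1) scale, LSEC library 5 stood high for Angpt1 (0.53, others 0.03 to 0.14), Egfr (0.22, others at 0), Lama2 (0.48, others 0 to 0.11) and the mean of the T and NK marker list (0.17, others 0 to 0.01). LSEC library 2 stood high for Notch3 (0.29, others 0 to 0.01). LSEC library 3 was low for Erg (5.43, others 6.13 to 6.21) and high for Fcgr2b (10.2, others 8.22 to 8.75).

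The difference between HSC and LSEC differed between PH and normal liver for 61 genes by the limma interaction. None of the 10 genes named next kept its call under every alternative. Positive differences of contrasts were found for Osmr (2.70), Spon1 (3.42), Eef2kmt (2.10), Cd209b (2.79) and the serpin Serpina3f (3.19). Negative ones were found for Jam2 (-4.60), Tubb3 (-4.32), Mansc1 (-2.32), Fam162b (-2.84) and Olfr99 (-2.86). Tubb3, a tubulin, was at 18.2 to 52.1 FPKM in PH LSEC and 0 to 1.14 FPKM in Norm LSEC. Cd209b, a C-type lectin, was at 7.34 to 11.6 FPKM in Norm LSEC and at most 1.20 FPKM in PH LSEC. Fam162b was listed at 0 in all PH HSC and all LSEC libraries and was at 8.33 and 4.53 FPKM in Norm HSC. It passed the filter only through these Norm HSC libraries, so its difference of contrasts rests on them alone. Olfr99 was at 4.85 and 5.94 FPKM in Norm HSC and at most 0.569 FPKM in PH HSC.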

How the results depend on the processing

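The 4154 PH calls became 2342 (1071 higher in HSC, 1271 in LSEC) with a replicate block. Deviations of same-numbered libraries from their group means correlated at -0.05, -0.02 and -0.03. The labels do not say whether same-numbered libraries belong together, and correlations over so few libraries cannot decide it. Without each replicate in turn the PH calls were 3391 to 4637, 1487 to 2210 higher in HSC and 1904 to 2427 in LSEC, and the counts of the growth factor, matrix and receptor lists stayed within 1.5 times under every alternative run. Normal liver called 4959 genes with all 20 groups in a single fit, and 1239 to 3787 without each replicate. The 61 interaction calls became 108 with quantile normalization, 111 with upper-quartile scaling, 1080 with all 20 groups in a single fit, 93 over genes under 10 FPKM in hepatocytes, 0 with the replicate block, 0 without both PH LSEC libraries 2 and 4, and 1 to 532 without each replicate; the cause was not tested. No named gene reversed. Of 170 named genes in the PH contrast, 157 kept their status under all alternatives that tested them and 13 did not. Over genes under 10 FPKM in hepatocytes, only 147 of the 170 were tested. None of the 10 named interaction genes kept its call under all. All 10 were lost with the replicate block and without both PH LSEC libraries 2 and 4. Without Norm LSEC 1, 9 were lost, and without PH LSEC 1, 6. Read depth is unknown, which limits what a 0 means.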

Other observations

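Transcripts of other liver cells stood unevenly between the sorts. The complement genes C1qa, C1qb and C1qc, known products of Kupffer cells, were higher in PH LSEC (C1qb at 131, 182, 131, 82.9 and 121 FPKM) than in PH HSC (11.6, 0 and 18.2 FPKM), whereas the Kupffer receptor Clec4f was at 9.64, 0 and 12.2 FPKM in HSC and 0.356 to 2.15 FPKM in LSEC. Pi16, listed here as a portal fibroblast marker, was at 17.4 to 66.4 FPKM in LSEC and at most 0.254 FPKM in HSC, and another marker of that list, Cd248, was at 63.3 to 181 FPKM in HSC and at most 2.66 FPKM in LSEC. The smooth muscle genes Tagln (389.9, 1309 and 1119 FPKM) and Myh11 (19.1, 33.6 and 25.4 FPKM) were on the stellate side, against at most 13.1 and 0.321 FPKM in LSEC.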
